A study of Mus musculus with 12 samples.

Results

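The 10 genes described here encode transcriptional regulators of brown fat: the PGC-1 coactivators *Ppargc1a* and *Ppargc1b*, the nuclear receptors *Pparg*, *Ppara*, *Esrra*, *Esrrb* and *Esrrg*, and the lineage factors *Prdm16*, *Ebf2* and *Cebpb*. They were taken by symbol from the 25124 genes with a transcript level in interscapular brown adipose tissue (BAT), and all 10 were found. To learn what the redox and glucose-uptake regulator Txnip does in this tissue, RNA-seq was run on BAT of male mice aged 10 weeks, with 1 library for each of 3 samples in every group. The groups were wild-type (WT) and *Txnip*−/− mice that had spent 1 week at room temperature (RT, 23 °C), and the same genotypes after 1 week at thermoneutrality (TN, 30 °C). The deletion was present in the whole body, so that every cell type of the tissue carried it, and the WT mice were described as littermates. No source used here says which libraries came from the same litter, and the p-values measure the spread between these 3 samples of a group. In a bulk tissue sample, fewer cells of a type and less RNA per cell cannot be told apart.

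Brown adipocytes burn fuel to make heat, and sympathetic nerves set the rate through norepinephrine and cAMP. Prdm16, Ebf2, C/EBPβ and PPARγ establish and keep the brown adipocyte identity. PGC-1α, itself induced by cAMP in the cold, and PGC-1β bind to PPARs and estrogen-related receptors (ERRs) and thereby turn on genes of mitochondria and fatty acid oxidation. Housing at thermoneutrality removes most of the cold stimulus that mice feel at ordinary room temperature.

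Transcript levels are given as TPM, a share of all transcripts that takes account of each transcript's length, so that different genes can be set side by side. The values of all genes summed to between 55.38% and 57.55% of the TPM scale in a library, and where the rest lies is not given. The libraries held between 29.93 and 47.44 in units of 1e6 reads, and since no gene counts entered the work, the counting error of single values is unknown. *Txnip* itself was at 564, 581 and 694 TPM in RT WT, at 24.8, 26.9 and 35.4 TPM in RT *Txnip*−/−, at 1238, 1083 and 1072 TPM in TN WT and at 11.0, 14.4 and 10.5 TPM in TN *Txnip*−/−, and every library fitted its genotype label. The 10 brown adipocyte markers were above 0 in every library, and their summed level was between 12201 and 12845 TPM in RT WT, 9093 and 11428 in RT *Txnip*−/−, 7528 and 8548 in TN WT, and 4138 and 4799 in TN *Txnip*−/−. *Ucp1* (mean 3982 TPM) and *Cox8b* (mean 3539 TPM) made up much of the RT WT sum, and both were called lower with TN. This sum is therefore a level of RNA and not a count of brown adipocytes. Markers of other cell types moved with the groups too. Summed over 6 genes, macrophage markers ranged from 48.6 to 53.0 TPM in RT WT, from 82.3 to 145 in RT *Txnip*−/−, from 111 to 199 in TN WT and from 323 to 445 in TN *Txnip*−/−. The 6 fibroblast markers went from 188 to 231 TPM, 225 to 274, 312 to 423 and 689 to 708 in the same order of groups. Skeletal muscle markers (8 genes) summed to at most 3.02 TPM in RT WT and to between 18.7 and 45.3 TPM in RT *Txnip*−/−, against 2.53 to 15.0 in TN WT and 3.33 to 15.3 in TN *Txnip*−/−. White adipocyte markers (6 genes) summed to 18.9 to 49.0 TPM in RT WT, 40.5 to 64.7 in RT *Txnip*−/−, 92.5 to 115 in TN WT and 111 to 177 in TN *Txnip*−/−, and lymphocyte markers (6 genes) to at most 9.42 TPM outside TN *Txnip*−/− and to between 20.3 and 25.2 TPM there. The part of these cell types in the results was not tested.

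In RT WT mice, *Cebpb* had the highest transcript level of the 10 genes (511 ± 129 TPM, SD, n = 3), followed by *Pparg* (234 ± 36.7 TPM), *Esrra* (137 ± 7.54 TPM) and *Ppara* (113 ± 10.9 TPM), and the ranges of these neighbours did not overlap. *Ppargc1b* (32.3 ± 4.32 TPM), *Ppargc1a* (23.8 ± 10.2 TPM) and *Ebf2* (23.3 ± 10.7 TPM) overlapped in turn, as did *Esrrg* (9.79 ± 0.557 TPM) and *Prdm16* (9.09 ± 5.16 TPM). At TN the order was another one. *Pparg* led in WT (346 ± 59.4 TPM), apart from *Ppara*, *Esrra* and *Cebpb*, which overlapped with their neighbours at 143 ± 13.7, 130 ± 11.9 and 125 ± 42.8 TPM. *Ppargc1a* was ranked 6 in RT WT, where it overlapped with both neighbours, and 8 in TN WT, where it overlapped with *Esrrg* at rank 7. In RT *Txnip*−/− mice, *Cebpb* (446 ± 156 TPM) and *Pparg* (229 ± 20.4 TPM) again stood first and second, and in TN *Txnip*−/− mice *Pparg* (252 ± 50.9 TPM) led, ahead of *Cebpb* (124 ± 33.9 TPM). *Esrrb* was last in every group, below 1 TPM in all 12 libraries.

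**Figure D1:**
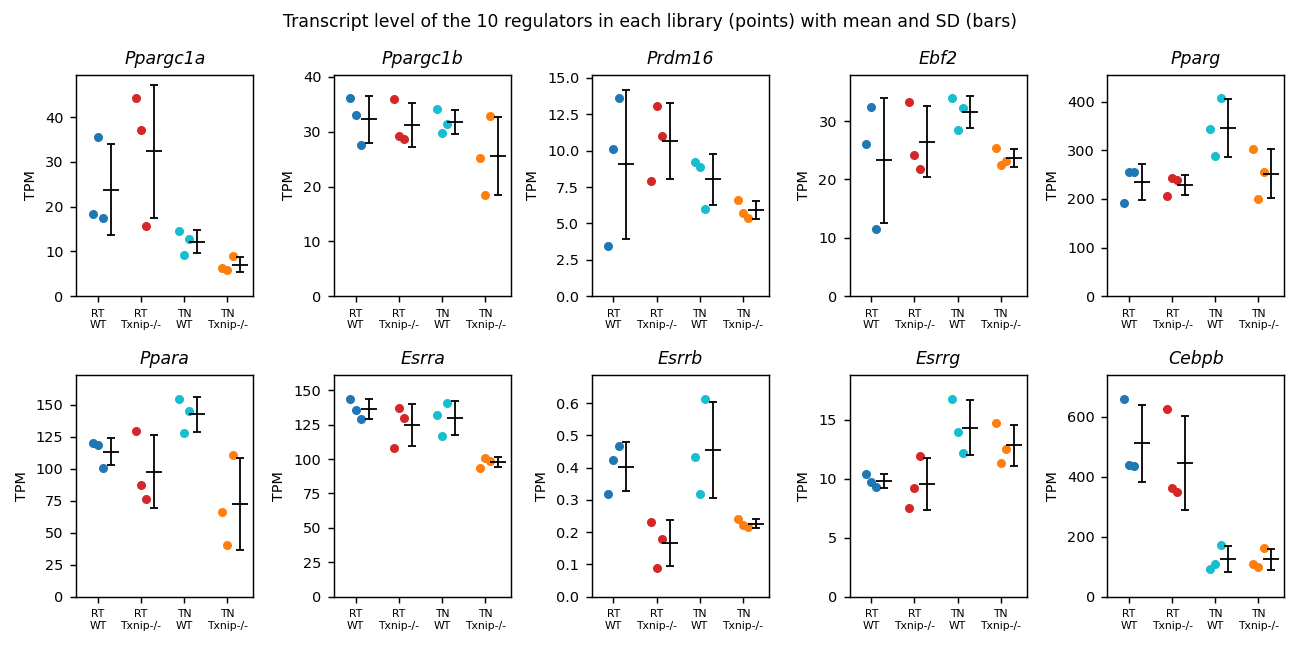
Transcript level (TPM, linear axis from 0, a scale of its own in each panel) of the 10 regulators in the 3 libraries (points) of the WT and *Txnip*−/− groups at RT and at TN, with the mean and SD of each group beside them. *Cebpb* lay between 350 and 660 TPM in the 6 RT libraries and between 91.9 and 173 TPM in the 6 TN libraries, and the 3 TN *Txnip*−/− libraries had the lowest *Esrra*.

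Differences were tested on the log2(TPM + 1) scale with limma, which pools information on the spread across all tested genes. Adding 1 makes the changes of low genes such as *Prdm16* smaller than the ratio of their TPM. A gene was called where its log2 fold change was above 0.32 or below −0.32 with a Benjamini-Hochberg adjusted p under 0.05 over all tested genes. Genes with a mean level under 1 TPM were not tested, which left out *Esrrb*. Between temperatures the median of all tested genes moved by 0.18 on the log2 scale in WT and by 0.15 in *Txnip*−/− mice, and changes relative to that median are given where they matter.

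PGC-1α, the product of *Ppargc1a* (NM_008904, mm10 chromosome 5, 51454249 to 51553921), is the cold-inducible coactivator. Its transcript was at 18.3, 35.6 and 17.5 TPM in RT WT and at 44.2, 37.2 and 15.6 TPM in RT *Txnip*−/−. At TN it was at 14.5, 9.30 and 12.8 TPM in WT and at 6.22, 5.87 and 9.04 TPM in *Txnip*−/−. The RT groups overlapped widely, with 2.84-fold between the highest and the lowest *Txnip*−/− library, whereas every TN *Txnip*−/− library lay below every other library of the series. *Ppargc1a* fell with TN in *Txnip*−/− mice, to 21.8% of the RT mean (log2 fold change −1.95, standard error 0.36, limma adjusted p = 0.000909), and was called in all 19 alternative settings tried, with log2 fold changes between −2.39 and −1.67. In WT mice the TN mean was 51.3% of the RT mean with no overlap (log2 fold change −0.86, standard error 0.36, limma adjusted p = 0.0636). Relative to the median of all genes the WT difference was −1.04, and with libraries centred on their medians it passed the test (limma adjusted p = 0.0348), as it did in 5 of 19 alternatives. Leaving out RT *Txnip*−/− library 1 or 3, which enters that fit through the shared spread, also brought it past the test (limma adjusted p = 0.049 and 0.0188), whereas without RT WT library 2 the difference was −0.54 (limma adjusted p = 0.237). Between genotypes at TN the *Txnip*−/− mean was 57.6% of the WT mean with no overlap (log2 fold change −0.72, standard error 0.19), and the limma adjusted p of 0.0515 missed the threshold. It was called without TN WT library 2 (adjusted p = 0.0334) or TN *Txnip*−/− library 3 (0.0272), with median centring (−0.75, adjusted p = 0.0464), with the replicate number as a block (0.0313) and on the authors' log-scale values (−0.56, adjusted p = 0.0219). Leaving out any other library at TN gave an adjusted p of 0.128 to 0.156, and all 12 libraries in 1 fit gave 0.24.

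*Ppargc1b* (NM_133249, chromosome 18, 61291445 to 61400412) encodes PGC-1β, the coactivator with a steadier supply. It had 36.1, 33.1 and 27.6 TPM in RT WT, 35.9, 29.2 and 28.6 TPM in RT *Txnip*−/−, 34.1, 29.8 and 31.5 TPM in TN WT, and 25.3, 18.5 and 32.8 TPM in TN *Txnip*−/−. All groups overlapped, and 2 of the 3 TN *Txnip*−/− libraries were the lowest of the series. The largest difference was the one between genotypes at TN (log2 fold change −0.34, 95% confidence interval −0.75 to 0.07, limma adjusted p = 0.28), and it was −0.14 without TN *Txnip*−/− library 2 and −0.53 without library 3 (limma adjusted p = 0.614 and 0.0568). In *Txnip*−/− mice, TN against RT gave −0.31 (95% confidence interval −0.68 to 0.06, limma adjusted p = 0.148), which passed the test with median centring (−0.50, adjusted p = 0.025) and without TN *Txnip*−/− library 3 (−0.50, adjusted p = 0.0182). It shrank to −0.11 without TN *Txnip*−/− library 2 (adjusted p = 0.565).

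*Cebpb* (NM_001287739, chromosome 2, 167688915 to 167690432) encodes C/EBPβ, an early factor of adipocyte differentiation and a partner of Prdm16. Its RT levels were 660, 439 and 434 TPM in WT and 626, 362 and 350 TPM in *Txnip*−/−. At TN, 91.9, 109 and 173 TPM were found in WT and 109, 99.7 and 162 TPM in *Txnip*−/−. The TN libraries lay far below the RT libraries in both genotypes, and within a temperature the genotypes overlapped. TN against RT gave a fall to 24.4% of the RT mean in WT (log2 fold change −2.05, standard error 0.29, limma adjusted p = 0.000279) and to 27.7% in *Txnip*−/− mice (−1.82, standard error 0.29, limma adjusted p = 0.000338), the largest change of the 10 genes in WT. *Cebpb* was called in all 19 alternatives in each genotype, with log2 fold changes from −2.31 to −1.85 in WT and from −2.03 to −1.55 in *Txnip*−/− mice. The genotype difference at TN was 0.01 (95% confidence interval −0.57 to 0.59), with a sign that turned under median centring, on the authors' log-scale values and in 3 fits that left out a library, and at RT it was −0.22 (95% confidence interval −0.81 to 0.37), with −0.02 left without RT WT library 1 and −0.49 without RT *Txnip*−/− library 1. Its transcript shares 312 exon bases with *Tmem189* on the opposite strand (mean 21.8 TPM), and whether the counting used strand is not given in the sources used here.

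The RefSeq promoters of *Ppargc1a* and *Cebpb*, known cAMP targets, are printed because they were called lower with TN, *Cebpb* in both genotypes and *Ppargc1a* in *Txnip*−/− mice, and that of *Pparg* because it was called in the other direction in WT mice. Each run is the 250 bases before an annotated start (RefSeq sequence, GRCm38.p6, which is mm10), 5′ to 3′ on the gene's strand, and capitals mark TGACG, the core of the cAMP response element, on either strand. A window was given for 8 of the 10 genes, and for 6 of them it began at the start of the transcript that was counted. For *Ppargc1a* (chr5:51567726-51567975, minus strand) the start is another one, 13804 bases upstream of the counted transcript's. The *Pparg* window (chr6:115362099-115362348, plus strand) and the *Cebpb* window (chr2:167688665-167688914, plus strand) lie at the counted start.
Ppargc1a: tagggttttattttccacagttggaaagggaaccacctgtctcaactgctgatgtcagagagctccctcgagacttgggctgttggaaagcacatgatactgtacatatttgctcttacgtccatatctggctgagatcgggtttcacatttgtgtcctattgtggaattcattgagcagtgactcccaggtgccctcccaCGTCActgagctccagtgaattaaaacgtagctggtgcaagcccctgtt
Cebpb: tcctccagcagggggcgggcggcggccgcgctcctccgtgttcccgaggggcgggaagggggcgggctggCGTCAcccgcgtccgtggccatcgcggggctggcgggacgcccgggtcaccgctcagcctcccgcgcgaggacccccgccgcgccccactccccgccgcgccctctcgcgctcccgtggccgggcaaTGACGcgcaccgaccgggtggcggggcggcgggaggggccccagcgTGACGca
Pparg: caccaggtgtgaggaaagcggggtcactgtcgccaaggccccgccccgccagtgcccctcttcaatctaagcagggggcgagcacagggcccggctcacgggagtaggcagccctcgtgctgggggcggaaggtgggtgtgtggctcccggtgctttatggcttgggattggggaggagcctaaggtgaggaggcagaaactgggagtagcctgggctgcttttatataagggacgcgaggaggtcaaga

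The *Cebpb* window held 3 matches to TGACG, 176 bases before the start on the minus strand and 49 and 3 bases before it on the plus strand, counted to the match's right end in the printed run. The *Ppargc1a* window held 1 match, 45 bases before its start on the opposite strand, and the *Pparg* window held 0. The window of *Esrra*, called lower with TN in *Txnip*−/− mice, held 0, that of *Ppara*, not called, held 1, and *Esrrb*, not tested, had 2 in a window away from the counted start and 0 at that start. The windows of *Prdm16* and *Esrrg* held 0. Of all 32841 RefSeq windows of this length, 17.8% held at least 1 match and 0.688% held at least 3. The full palindrome TGACGTCA, which contains that core on both strands and is found in 1.55% of windows, was absent from the windows of these 8 genes, as was the ERR element AAGGTCA, found in 4.08% of windows. The PPAR-type direct repeat of AGGTCA with 1 base between the copies was in 0.0335% of windows and in none of theirs. C/EBP-type letters TTNNGNAA were in 36.9% of all windows, in the *Ppargc1a* window once, and not in the *Cebpb* window or the printed *Pparg* window. Another *Pparg* window (chr6:115421816-115422065) had 2 matches, 208 and 9 bases before its start. *Prdm16* had 1, and *Esrrg* had 1 at the counted start and 1, 2 and 0 in its other windows. *Ppara*, *Esrra* and *Esrrb* had 0. A match is a description of the letters and not a bound site.

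Among the PPARs, *Pparg* (NM_001308354, chromosome 6, 115362349 to 115490401) encodes the receptor that drives adipocyte differentiation and lipid storage. Its levels were 192, 256 and 255 TPM in RT WT, 206, 244 and 238 TPM in RT *Txnip*−/−, 344, 288 and 407 TPM in TN WT, and 302, 200 and 255 TPM in TN *Txnip*−/−. The 3 TN WT libraries lay above all RT libraries, whereas the TN *Txnip*−/− libraries overlapped with those of the other groups. In WT mice *Pparg* rose with TN to 148% of the RT mean (log2 fold change 0.56, standard error 0.17, limma adjusted p = 0.0152), or 0.38 above the median of all genes. The call was lost with median centring (0.38, adjusted p = 0.104) and without RT WT library 1 (0.42, adjusted p = 0.0593) or TN WT library 3 (0.44, adjusted p = 0.0624). In *Txnip*−/− mice TN against RT gave 0.12 (95% confidence interval −0.24 to 0.48), which turned to −0.07 with median centring. At TN the *Txnip*−/− mean was 72.9% of WT with overlapping libraries (log2 fold change −0.46, limma adjusted p = 0.132), and the log2 fold change ran from −0.30 without TN *Txnip*−/− library 2 to −0.60 without TN *Txnip*−/− library 1.

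*Ppara* (NM_001113418, chromosome 15, 85735564 to 85806851) encodes the PPAR of fatty acid oxidation. It was at 120, 119 and 101 TPM in RT WT, at 130, 87.3 and 76.0 TPM in RT *Txnip*−/−, at 155, 128 and 145 TPM in TN WT, and at 66.3, 40.0 and 111 TPM in TN *Txnip*−/−. All 3 TN *Txnip*−/− libraries lay below the TN WT libraries, and they differed among themselves by 2.77-fold. The TN *Txnip*−/− mean was 50.7% of TN WT (log2 fold change −1.09, standard error 0.31), and the limma adjusted p of 0.0656 missed the threshold. It was called without TN *Txnip*−/− library 3 (−1.45, adjusted p = 0.0116), with all 12 libraries in 1 fit (adjusted p = 0.0333) and on the authors' log-scale values, which are those of another transcript (NM_011144, −0.82, adjusted p = 0.0269). Without TN *Txnip*−/− library 2 it shrank to −0.73 (adjusted p = 0.102). Leaving out any other library at TN gave an adjusted p of 0.112 to 0.159, and no filter on low values gave 0.144. In WT mice TN against RT gave 0.33, with no overlap but a limma adjusted p of 0.359, and in *Txnip*−/− mice −0.51 (limma adjusted p = 0.16). Both of these passed the test in 1 alternative each, the first with the 6 WT libraries alone (adjusted p = 0.0286) and the second without TN *Txnip*−/− library 3 (−0.87, adjusted p = 0.0107). The first shrank to 0.15 with median centring (adjusted p = 0.706), and the second to −0.15 without TN *Txnip*−/− library 2 (adjusted p = 0.618) and to −0.29 without RT *Txnip*−/− library 1 (adjusted p = 0.447).

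ERRα, encoded by *Esrra* (NM_007953, chromosome 19, 6910977 to 6921808), is a main ERR partner of PGC-1 at genes of the respiratory chain. Its levels were 144, 136 and 129 TPM in RT WT, 108, 137 and 130 TPM in RT *Txnip*−/−, 132, 117 and 141 TPM in TN WT, and 93.8, 101 and 98.3 TPM in TN *Txnip*−/−. The 3 TN *Txnip*−/− libraries were the lowest of all 12, apart from every other group. *Esrra* was lower in *Txnip*−/− than in WT mice at TN, at 75.1% of the WT mean (log2 fold change −0.41, standard error 0.08, limma adjusted p = 0.022), and it fell with TN in *Txnip*−/− mice to 78.2% of the RT mean (−0.35, standard error 0.09, limma adjusted p = 0.00829). In WT mice TN against RT was −0.07 (95% confidence interval −0.27 to 0.13), with −0.0035 without TN WT library 2 and −0.13 without TN WT library 3. With median centring the differences with TN were −0.26 in WT (limma adjusted p = 0.0605) and −0.53 in *Txnip*−/− mice (limma adjusted p = 0.00122). The genotype call at TN was lost without TN WT library 1 (adjusted p = 0.0568) or 3 (0.0633) and without TN *Txnip*−/− library 1 (0.0895) or 2 (0.0559), and it fell short of the required fold on the authors' log-scale values (−0.31, adjusted p = 0.0163), while the log2 fold change kept between −0.48 and −0.31 over all 14 alternatives. The fall with TN stayed under an adjusted p of 0.05 in every alternative, but was smaller than the required fold without RT *Txnip*−/− library 2 (−0.27) or 3 (−0.32) or TN *Txnip*−/− library 1 (−0.32). *Esrra* shares 73 exon bases with *Trmt112* on the opposite strand (mean 21.3 TPM) and 91 with *Mir6990* on its own strand.

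*Esrrg* (NM_001357535, chromosome 1, 187652241 to 188214885) encodes ERRγ, a receptor of oxidative tissues. It had 10.4, 9.72 and 9.28 TPM in RT WT, 7.51, 9.20 and 11.9 TPM in RT *Txnip*−/−, 16.8, 14.0 and 12.2 TPM in TN WT, and 14.7, 11.3 and 12.5 TPM in TN *Txnip*−/−. All TN WT libraries lay above all RT WT libraries, while 1 RT *Txnip*−/− library overlapped with the TN *Txnip*−/− libraries. In WT mice *Esrrg* rose with TN to 147% of the RT mean (log2 fold change 0.50, standard error 0.15, limma adjusted p = 0.0173). That call was lost with median centring (0.32, adjusted p = 0.118) and without RT WT library 3 (adjusted p = 0.0532) or TN WT library 1 (adjusted p = 0.0698). In *Txnip*−/− mice it was called at 134% of the RT mean (0.40, standard error 0.15, limma adjusted p = 0.0425), but in only 8 of 19 alternatives, among them neither upper-quartile scaling (0.33, adjusted p = 0.0894) nor median centring (0.21, adjusted p = 0.265). The libraries without which this second call was lost were RT WT 2 (adjusted p = 0.0551), RT *Txnip*−/− 1 (0.162) and 2 (0.101), TN WT 2 (0.0547) and TN *Txnip*−/− 1 (0.155) and 3 (0.0747). Between genotypes the log2 fold change was −0.05 at RT (95% confidence interval −0.40 to 0.29) and −0.15 at TN (−0.45 to 0.15). The TN value was −0.03 without TN WT library 1 and −0.25 without TN WT library 3.

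*Esrrb* (NM_011934, chromosome 12, 86421644 to 86521628), the ERR best known from pluripotent cells, was close to the limit of what was measured. It had 0.319, 0.424 and 0.467 TPM in RT WT, 0.231, 0.0880 and 0.179 TPM in RT *Txnip*−/−, 0.434, 0.319 and 0.614 TPM in TN WT, and 0.241, 0.221 and 0.215 TPM in TN *Txnip*−/−. At both temperatures each *Txnip*−/− library lay below each WT library, but no test was made at this level and the number of reads behind the values is unknown.

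*Ebf2* (NM_001360202, chromosome 14, 67234644 to 67430952) encodes a factor that marks brown precursors and opens brown-selective chromatin. It was at 26.0, 32.4 and 11.5 TPM in RT WT, at 33.3, 24.2 and 21.8 TPM in RT *Txnip*−/−, at 33.9, 28.5 and 32.3 TPM in TN WT, and at 25.4, 22.5 and 23.1 TPM in TN *Txnip*−/−. The TN groups did not overlap and were tight (1.19-fold and 1.13-fold between their highest and lowest libraries), whereas RT WT spanned 2.81-fold. *Ebf2* was lower in *Txnip*−/− than in WT mice at TN, at 75.0% of the WT mean (log2 fold change −0.40, standard error 0.08, limma adjusted p = 0.027). With all 12 libraries in 1 fit, where the spread of RT WT enters, the adjusted p was 0.426, without the filter on low values it was 0.0545, and on the authors' log-scale values, which for *Ebf2* belong to another transcript (NM_001276387), the log2 fold change of −0.32 fell short of the threshold (adjusted p = 0.0175), so that transcript and transform changed together. The call was also lost without TN WT library 1 (0.0717) or 3 (0.0825), and without TN *Txnip*−/− library 1 (0.0546), 2 (0.0911) or 3 (0.065), though the log2 fold change stayed between −0.47 and −0.32 in all 14 alternatives. TN against RT in WT gave 0.53 (limma adjusted p = 0.133), 0.82 (adjusted p = 0.0281) without RT WT library 2 and 0.11 (adjusted p = 0.585) without RT WT library 3, so that single RT WT libraries set the size of this difference. On the opposite strand, *Gm10860* covers 424 of its exon bases.

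*Prdm16* (NM_001291029, chromosome 4, 154316125 to 154636873) encodes the coregulator that sets brown against muscle or white fat fate. It was at 3.48, 10.1 and 13.6 TPM in RT WT, at 7.94, 13.1 and 11.0 TPM in RT *Txnip*−/−, at 9.19, 8.87 and 6.01 TPM in TN WT, and at 6.62, 5.72 and 5.39 TPM in TN *Txnip*−/−. RT WT library 1 was the lowest of the 12 and RT WT library 3 the highest, so that this group spanned 3.92-fold. The TN *Txnip*−/− libraries lay below the RT *Txnip*−/− libraries (log2 fold change −0.74, limma adjusted p = 0.0941) and overlapped with TN WT (−0.37, limma adjusted p = 0.169). The first difference passed the test with the 6 *Txnip*−/− libraries alone (adjusted p = 0.00766), with median centring (−0.93, adjusted p = 0.0472) and without RT WT library 1 (adjusted p = 0.00717), and the second without TN WT library 3 (−0.54, adjusted p = 0.0363). In WT mice TN against RT was −0.02 (95% confidence interval −0.77 to 0.74). *B230104I21Rik* overlaps 109 of its exon bases on the opposite strand.

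**Figure D2:**
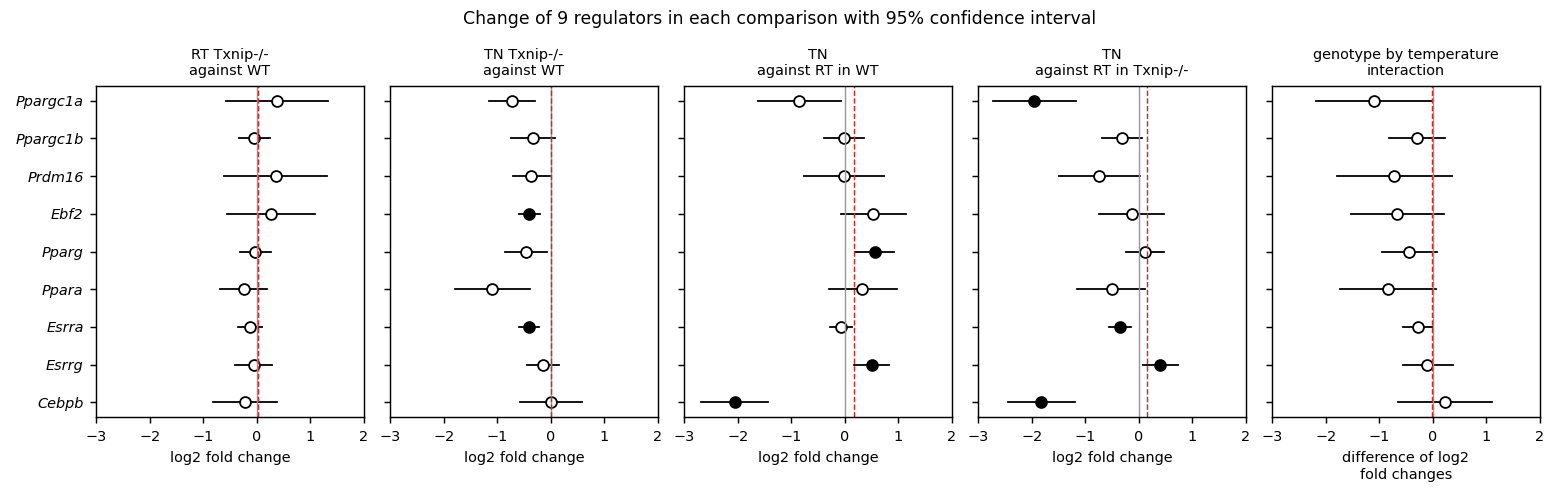
Change of the 9 tested regulators on the log2(TPM + 1) scale (points) with 95% confidence intervals (lines) for each genotype and temperature comparison, and for the interaction, which is the *Txnip*−/− minus WT difference at TN less that at RT. Filled points passed the fold and limma adjusted p thresholds, the grey line marks 0 and the dashed line the median of all tested genes. *Cebpb* at −2.05 and −1.82 and *Ppargc1a* at −1.95 lie farthest from 0, and 8 of the 9 points at TN between genotypes lie below 0.

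Between genotypes at RT, none of the regulators differed by the test. Of the 9 tested, 0 were called by limma and 0 had an unadjusted p under 0.05, where 1.49% of all 11980 tested genes were called and 16.0% had such a p. The groups overlapped for all 9 genes (22.6% of all genes did not overlap). Log2 fold changes ran from −0.24 for *Ppara* to 0.38 for *Ppargc1a*, with a median of −0.05 against 0.03 over all genes. Single libraries set the size of both end values. *Ppargc1a* was at 0.09 without RT *Txnip*−/− library 1 and 0.82 without RT *Txnip*−/− library 3, and *Ppara* at −0.47 and −0.08 without the same libraries. The confidence intervals reached from −0.58 to 1.33 for *Ppargc1a* and from −0.62 to 1.32 for *Prdm16*, so that differences of 2-fold were not excluded by these libraries. The 5 tested of 8 muscle markers were called higher in these RT *Txnip*−/− libraries. All 8 together summed to at most 3.02 TPM in RT WT. The tested ones thus reached the filter mainly through the RT *Txnip*−/− libraries, and their calls rest in part on it. The macrophage markers *Lyz2* and *Mrc1* (2 of 6) and the lymphocyte marker *Jchain* (1 of 3 tested) were also called higher, and 3 of 10 brown adipocyte markers lower. The part of these differences in the values of genes such as *Esrrg* and *Ppargc1a* was not tested.

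At TN, *Ebf2* and *Esrra* were lower in *Txnip*−/− than in WT mice, and most other regulators had values below 0 that did not pass. Limma called 2 of 9 lower, against 2.17% of all 12891 genes called lower and 8.66% called in either direction. The libraries did not overlap for *Ppargc1a*, *Ppara*, *Ebf2* and *Esrra*, all 4 lower in *Txnip*−/−, against 13.4% of all genes apart in that direction. An unadjusted p under 0.05 was found for 6 of 9 genes, where 25.6% of all genes had one, and the log2 fold change was below 0 for 8 of 9, where 48.1% of all genes were. The median log2 fold change was −0.40, against 0.01 over all genes. In the same libraries macrophage markers were called higher (6 of 6), as were 5 of 6 fibroblast markers, 2 of 4 tested lymphocyte markers (*Cd4* and *Jchain*) and 2 of 3 tested white adipocyte markers (*Retn* and *Nnat*), and 9 of 10 brown adipocyte markers were called lower, and their part in the difference was not tested.

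*Cebpb* was called lower with TN in both genotypes, as was *Ppargc1a* in *Txnip*−/− mice, and no rise of a regulator was called on every scale. In WT mice 3 of 9 were called, *Cebpb* lower and *Pparg* and *Esrrg* higher, against 37.8% of all 12486 genes (31.4% higher and 6.39% lower), so that the share of called genes was close to that of all genes. In *Txnip*−/− mice 4 of 9 were called, *Ppargc1a*, *Cebpb* and *Esrra* lower and *Esrrg* higher, against 39.2% of all genes (30.9% higher and 8.27% lower). Differences of these 9 genes from the shares of all genes were not tested. Scaling set the balance of all calls in these comparisons, with 3919 higher and 798 lower genes in WT by TPM, 2867 and 1205 with upper-quartile scaling, and 1926 and 1841 with median centring. In *Txnip*−/− mice the counts were 3858 and 1033, 3207 and 1455, and 2294 and 2435 in the same order. With median centring, 0 regulators were called higher in either genotype, 2 lower in WT and 5 lower in *Txnip*−/− mice, so the rises of *Pparg* and *Esrrg* did not pass the test on that scale, whereas the falls of *Cebpb* and *Ppargc1a* did in both genotypes. Markers of macrophages (5 of 6 called higher in WT, 6 of 6 in *Txnip*−/− mice) and fibroblasts (5 of 6 in each genotype) rose with TN in the same libraries, as did those of endothelial cells (3 of 5 in WT, 5 of 5 in *Txnip*−/− mice), lymphocytes (2 of 3 and 3 of 3 tested) and white adipocytes (2 of 3 tested in each). In *Txnip*−/− mice 2 of 5 Schwann cell markers rose, and all 5 tested skeletal muscle markers were called lower with TN, in the comparison in which *Ppargc1a* and *Esrra* were called lower. These 5 of 8 muscle markers passed the filter in a set where the RT *Txnip*−/− libraries had the highest muscle sums. Their calls rest in part on that filter. The part of these cell types was not tested.

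The difference between genotypes in the response to temperature was tested as an interaction. Of the 9 regulators, 0 were called by limma and 0 had an unadjusted p under 0.05, where 0.00801% of all genes were called and 12.6% had such a p. The smallest adjusted p was that of *Ppargc1a* (interaction −1.09 on the log2 scale, 95% confidence interval −2.19 to 0.01, limma adjusted p = 0.401), and *Esrra* (−0.27, adjusted p = 0.416), *Ppara* (−0.84, adjusted p = 0.423) and *Pparg* (−0.44, adjusted p = 0.463) followed. Over 18 alternatives the interaction ran from −1.54 to −0.81 for *Ppargc1a* and from −0.37 to −0.20 for *Esrra*. It ran from −1.20 to −0.48 for *Ppara* and from −0.57 to −0.28 for *Pparg*. The interaction was below 0 for 8 of the 9 genes, against 54.0% of all genes. The calls that *Ppargc1a* and *Esrra* had in *Txnip*−/− mice alone, and *Pparg* in WT mice alone, were therefore not shown to differ between genotypes.

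Within a library, the ratio of 2 regulators does not depend on how libraries are scaled. *Ppargc1a* was at 0.507, 1.08 and 0.635 times *Ppargc1b* in RT WT, at 1.23, 1.28 and 0.545 times in RT *Txnip*−/−, at 0.426, 0.312 and 0.408 times in TN WT and at 0.246, 0.317 and 0.275 times in TN *Txnip*−/−. All TN ratios were thus below all RT ratios. *Esrrg* was at 0.0719, 0.0712 and 0.0717 times *Esrra* in RT WT, at 0.0695, 0.0670 and 0.0921 times in RT *Txnip*−/−, at 0.128, 0.119 and 0.0865 times in TN WT and at 0.157, 0.112 and 0.127 times in TN *Txnip*−/−, which were separate between temperatures within each genotype. The *Ppara* to *Pparg* ratio was between 0.394 and 0.625 in RT WT, between 0.320 and 0.633 in RT *Txnip*−/−, between 0.357 and 0.451 in TN WT, and at 0.219, 0.200 and 0.434 in TN *Txnip*−/−, where library 3 lay within the WT range and the other two below every other library.

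**Figure D3:**
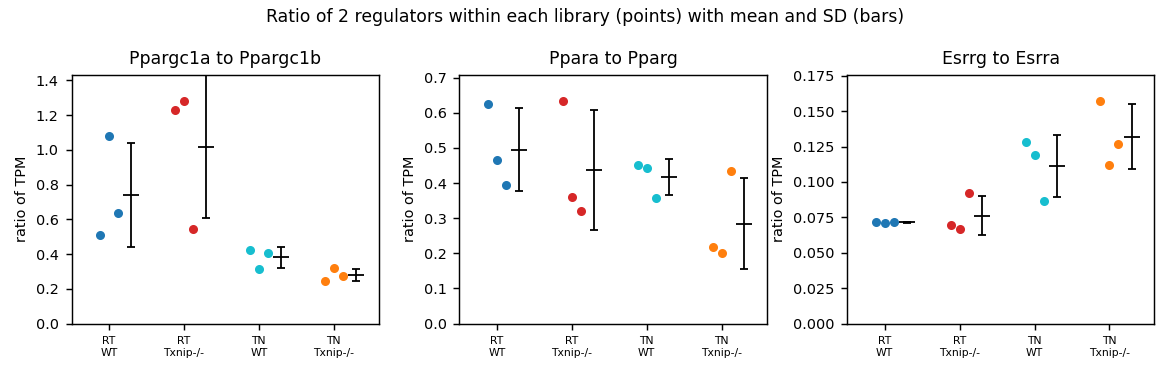
Ratio of the TPM of 2 regulators in the same library for the 3 libraries (points) of each group, with mean and SD, on linear axes from 0. The *Ppargc1a* to *Ppargc1b* ratio was at least 0.507 in all RT libraries and at most 0.426 in all TN libraries, and the *Esrrg* to *Esrra* ratio was nearly the same in the 3 RT WT libraries.

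Other regulators of brown fat were read as a list of 30 genes, all tested. At RT between genotypes 0 were called, the smallest adjusted p being that of the coactivator *Ncoa1* (log2 fold change 0.30, limma adjusted p = 0.209). At TN *Irf4*, a cold- and fasting-induced partner of PGC-1α, was the only one called, higher in *Txnip*−/− mice (7.47 ± 0.475 against 4.90 ± 0.305 TPM, SD, n = 3, log2 fold change 0.52, limma adjusted p = 0.0106), and the list's median was −0.03 against 0.01 over all genes. It was not called with all 12 libraries in 1 fit, and median centring called 3 of the list. With TN, 7 rose and 3 fell in WT and 5 rose and 2 fell in *Txnip*−/− mice. Of all genes, 31.4% and 30.9% were called higher and 6.39% and 8.27% lower, and the difference of the list from these shares was not tested. The list's medians of 0.18 and 0.12 lay at or near those of all genes, and median centring left 4 called in *Txnip*−/− mice. *Lhx8*, a LIM homeobox gene enriched in brown fat, rose most in both genotypes (0.98 in WT and 0.91 in *Txnip*−/− mice, limma adjusted p = 0.00131 and 0.00151). The largest falls among the called genes were those of *Irf4* in WT (−1.23, adjusted p = 0.00507) and of the PPARγ cofactor *Tle3* in *Txnip*−/− mice (−0.82, adjusted p = 0.00379), both by limma. *Rb1* had the smallest adjusted p in the interaction (−0.50, limma adjusted p = 0.145).

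Known PPAR targets were 20 listed genes, of which *Gyk* was not among the symbols and 18 were tested. With TN, 13 fell and 1 rose in WT, and 12 fell and 1 rose in *Txnip*−/− mice, where 6.39% and 8.27% of all genes were called lower, with medians of −0.59 and −0.55 against 0.18 and 0.15 over all genes. The peroxisomal enzyme gene *Ehhadh* fell most, from 96.9 ± 14.3 to 13.1 ± 1.84 TPM in WT (log2 fold change −2.79, limma adjusted p = 4.15e-05) and from 107 ± 31.5 to 23.1 ± 8.90 TPM in *Txnip*−/− mice (−2.18, adjusted p = 4.38e-05 by limma). The lipoprotein lipase inhibitor *Angptl4* was the gene that rose (1.23 and 1.46, limma adjusted p = 0.000119 and 2.32e-05). Between genotypes at TN 3 were called lower (2.17% of all genes) and 1 higher (836 of all 12891 genes), with a median of −0.04, and the count was 1 without the filter on low values and without TN WT library 1 or 3 or TN *Txnip*−/− library 1 or 2. The carnitine transferase gene *Cpt1b* was lower in *Txnip*−/− mice (296 ± 59.9 against 462 ± 59.6 TPM, −0.65, limma adjusted p = 0.0355), the largest fall of the list. At RT 0 were called, and *Pdk4* came nearest (0.28, limma adjusted p = 0.0898).

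Of 20 PGC-1 and ERR target genes, all tested and mostly of the respiratory chain, citric acid cycle and fatty acid oxidation, 3 were lower in *Txnip*−/− mice at TN (2.17% of all genes) and 18 had a log2 fold change below 0 (48.1% of all genes), with a median of −0.23 against 0.01 over all genes. The count called was 5 when all 12 libraries were fitted together. *Perm1*, a muscle and brown fat regulator induced by PGC-1 and ERR, was the lowest (10.2 ± 3.35 against 28.0 ± 5.50 TPM, log2 fold change −1.41, limma adjusted p = 0.0106). At RT 0 were called, with a median of −0.12, and *Atp5b* of the ATP synthase had the smallest adjusted p (−0.20, limma adjusted p = 0.109). With TN, 2 rose and 2 fell in WT (31.4% and 6.39% of all genes), while 7 fell and 0 rose in *Txnip*−/− mice (8.27% and 30.9%), and the called genes numbered 9 and 16 with median centring and 7 and 13 by the adjusted p alone. *Perm1* rose with TN in WT (1.02, limma adjusted p = 0.0055). The carnitine carrier gene *Slc25a20* fell most in both, from 565 ± 19.8 to 343 ± 24.2 TPM in WT (−0.72, limma adjusted p = 7.71e-05) and from 514 ± 50.0 to 246 ± 7.59 TPM in *Txnip*−/− mice (−1.05, limma adjusted p = 6.64e-06).

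The 10 brown adipocyte markers, the same set as in the readings of cell types, were mostly lower in *Txnip*−/− mice at TN, where 9 were called lower against 2.17% of all genes, led by *Ucp1*, the uncoupling protein of thermogenesis (249 ± 92.7 against 814 ± 281 TPM, log2 fold change −1.72, limma adjusted p = 0.0151), and the median was −0.93 against 0.01 over all genes. The count was 4 without the filter on low values and 5 without TN WT library 3 or TN *Txnip*−/− library 1 or 2. At RT 3 were called lower, where 1.49% of all genes were called in either direction, led by *Elovl3* (−1.52, limma adjusted p = 0.0488), with 0 left without the filter, without RT WT library 1 or 2 or RT *Txnip*−/− library 1 or 3, and 1 without RT WT library 3. With TN, 6 fell and 2 rose in WT (6.39% of all genes were called lower and 31.4% higher) and 8 fell and 1 rose in *Txnip*−/− mice (8.27% and 30.9%). *Dio2*, the thyroid hormone deiodinase, fell most (−4.04 and −3.91, limma adjusted p = 4.15e-05 and 1.66e-05), and *Kng2* rose (0.81 and 0.50, adjusted p = 0.000446 and 0.00569 by limma). *Cox8b* had the smallest adjusted p in the interaction (−0.93, limma adjusted p = 0.0776).

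Genes induced by cAMP were 10, with 9 or all tested. With TN, 5 fell and 1 rose in WT and 4 fell and 2 rose in *Txnip*−/− mice, where 6.39% and 8.27% of all genes were called lower and 31.4% and 30.9% higher. The medians were −0.96 and −0.42, against 0.18 and 0.15 over all genes. *Gadd45g*, a growth arrest gene induced by cold in brown fat, fell most in WT, from 125 ± 77.4 to 11.4 ± 2.95 TPM (log2 fold change −3.21, limma adjusted p = 0.000137), and the orphan receptor gene *Nr4a3* fell most in *Txnip*−/− mice (−1.94, limma adjusted p = 0.00306). *Nr4a3* was at 8.63 ± 4.38 TPM in RT WT and 0.329 ± 0.169 in TN WT. In *Txnip*−/− mice it was at 6.78 ± 5.24 TPM at RT and 0.727 ± 0.249 at TN. With TN means under 1 TPM it reached the filter through the RT libraries alone, so that its calls with TN rest on that filter. *Fos*, counted among the genes that rose, was at 0.766 ± 0.652 TPM in RT WT and 1.76 ± 0.0603 in TN WT, and at 0.569 ± 0.0855 TPM in RT *Txnip*−/− and 2.75 ± 0.404 in TN *Txnip*−/−. Its RT means were under 1 TPM and it reached the filter through the TN libraries alone, so that its calls with TN rest on that filter. Between genotypes 0 were called at RT, where *Sik1* had the smallest adjusted p (−1.54, limma adjusted p = 0.36). At TN 2 of 9 were called higher in *Txnip*−/− mice, where 836 of all 12891 genes were, namely *Fos* and *Gadd45g* (21.6 ± 0.184 against 11.4 ± 2.95 TPM, 0.90, limma adjusted p = 0.0165), though the count was 0 with all 12 libraries in 1 fit and without TN *Txnip*−/− library 1 or 2, and 1 in most other alternatives. In the interaction no gene of these 5 lists was called, and *Slc25a20* (−0.34, adjusted p = 0.261) and *Gadd45g* (1.40, adjusted p = 0.327) had the smallest limma adjusted p of their lists.

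For each regulator called at least once, the genes with the most similar profile over the 12 libraries were found from the root mean square (RMS) difference of log2(TPM + 1), each gene taken relative to its own mean. *Ppargc1a* departed from its mean by an RMS of 0.87 and came nearest to *Foxo1*, which encodes a forkhead factor held back by insulin (RMS difference 0.40), to the gluconeogenic enzyme gene *Pck1* (0.42) and to *Atl2* (0.42). *Pck1* stands in the list of PPAR targets as well, and it went from a mean of 2750 TPM in RT WT to 1037 in TN WT and from 2436 to 659 TPM in *Txnip*−/− mice. *Cebpb* (RMS 1.03) was closest to *Sesn2* (0.26), *Arl4a* (0.26) and *Sgk1* (0.29). *Ebf2* (RMS 0.39) was closest to *Cebpa*, the gene of C/EBPα, which drives adipocyte differentiation (0.21), and then to *Mtm1* (0.22) and *Tesk2* (0.23). Regulators that varied less had nearer neighbours, namely *Mrm1* (0.07), *Dnaja3* (0.07) and *Atxn2* (0.08) for *Esrra* (RMS 0.21), *AI450353* (0.15), *Dph6* (0.17) and *Gm38396* (0.17) for *Pparg* (RMS 0.30), and *Zfp174*, *Dgcr8* and *Zfp28* (0.12 each) for *Esrrg* (RMS 0.29). These are descriptions of the same 12 libraries and were not tested.

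**Figure D4:**
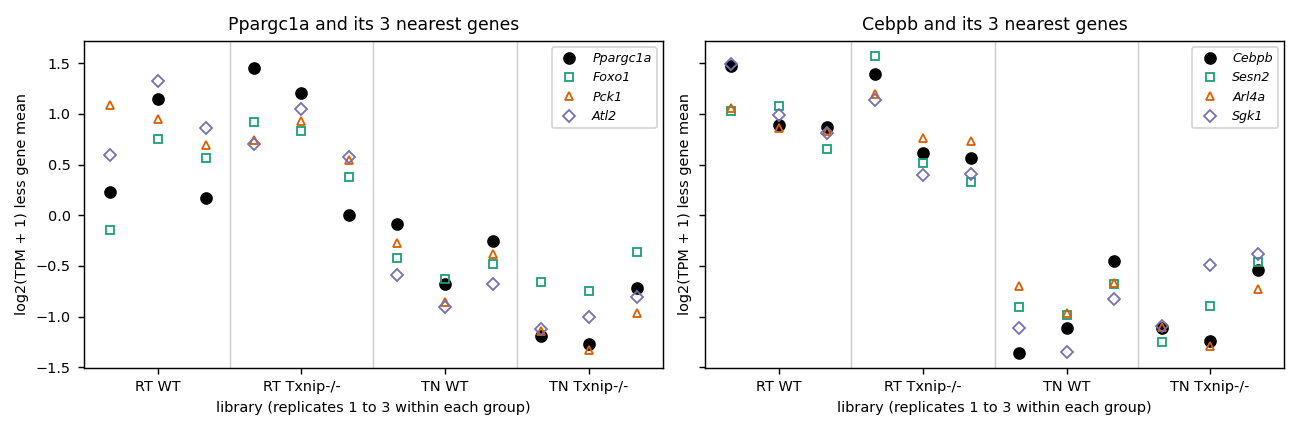
Level of *Ppargc1a* (left) and *Cebpb* (right) with their 3 nearest genes in each of the 12 libraries, as log2(TPM + 1) less the gene's own mean, with replicates 1 to 3 from left to right within each group. The RT libraries of *Cebpb*, *Sesn2*, *Arl4a* and *Sgk1* lie above their means and the TN libraries below, and *Ppargc1a* scatters more among the RT libraries than *Pck1* and *Atl2*.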

How the data were processed

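The authors isolated poly-A RNA from BAT, sequenced it from 1 end, mapped the reads with STAR 2.7.5a on mm10 and assigned them to exons with HOMER 4.11.1. They deposited TPM for all 12 libraries, with 1 transcript kept per gene. The authors' tables of each temperature further hold log2 values, by a transform that is not named, and these were used as an alternative only. The kept transcript was the same in all deposited tables for 5 of the 10 regulators, and for *Ppargc1b*, *Prdm16*, *Ebf2*, *Ppara* and *Esrrg* that alternative changes the transcript along with the transform. Fold changes and p-values of the authors' DESeq2 comparison stand in the same tables and were not used.

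Because TPM are not counts, limma 3.58.1 (R 4.3.3; trended empirical Bayes, Benjamini-Hochberg adjustment) was run on log2(TPM + 1) for genes whose mean reached 1 TPM, in place of the planned test on counts. Genotypes were compared on the 6 libraries of a temperature, and temperatures and the interaction on all 12. Calls needed a log2 fold change above 0.32 or below −0.32 and an adjusted p under 0.05, and the interaction an adjusted p alone. The pipeline was tested on simulated data. The deviations of same-numbered libraries from their group means correlated over genes at 0.297, −0.022 and 0.210 between genotypes in the RT groups and at 0.042, 0.023 and −0.036 in the TN groups, so the numbers were not taken as pairs.

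Genes named are the 10 regulators, *Txnip*, the called gene with the largest rise and fall of each list (otherwise the smallest adjusted p), and the 3 nearest genes of each regulator called. Besides these, some called cell type markers, genes that share exon bases with a regulator and a listed gene that was not found are named. *Txnip* stood at the head as the check of genotype. A result that these rules would name is not reported here. The regulators, lists and rules were chosen with earlier results of these data known. Exon overlaps were read from GENCODE vM21 and promoters from RefSeq. The alternatives were log2(TPM + 0.1), no filter, upper-quartile scaling, median centring, a replicate block, adjusted p alone, an adjusted p under 0.1 for the interaction, other sets of libraries in the fit, the authors' log-scale values, and each library left out. Figures were drawn with matplotlib 3.10.9.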

Additional observations from a re-analysis of the deposited data

Results flagged for a closer look

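*Txnip*, the deleted gene, was the 1 gene of 12486 called in the interaction of genotype and temperature, with a difference between the genotype effects of −2.09 on the log2 scale (standard error 0.20, limma adjusted p = 0.00345). Its level was higher at TN than at RT in the 3 WT libraries and lower in the 3 *Txnip*−/− libraries, without overlap in either genotype (log2 fold changes 0.89 and −1.21). None of the regulators was singled out in this way. With 3 libraries a group, no test for single outlying libraries was made.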

How the results depend on the processing

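The count of regulators called between genotypes stayed at 0 at RT and in the interaction under every alternative. At TN it was 2 and moved to 1 without the filter on low values and to 4 with the replicate block, with a range from 0 to 3 when each library was left out, and the block added *Ppargc1a* (adjusted p = 0.0313) and *Ppara* (0.0375). It was 3 with median centring, which added *Ppargc1a*, and 2 on the authors' log-scale values, where *Ebf2* and *Esrra* lost their calls and *Ppargc1a* and *Ppara* gained one, and 2 with all 12 libraries in 1 fit, where *Ppara* stood in place of *Ebf2*. As same-numbered libraries did not deviate together in every pair, the block only groups samples that share a number. Across temperatures that number is shared in the sample titles only, as the authors' own column labels number RT and TN libraries differently. In *Txnip*−/− mice the block ended the call of *Esrrg* with TN (0.0584), and it changed no other call of a regulator. For TN against RT in WT the count was 3, moved to 5 with the 6 libraries of 1 genotype and ranged from 2 to 4 over libraries left out, and in *Txnip*−/− mice it was 4 and ranged from 2 to 5. Signs that turned belonged to differences that were not called. *Cebpb* between genotypes at TN was −0.03 with median centring and −0.01 on the authors' log-scale values, *Prdm16* with TN in WT was 0.01 on log2(TPM + 0.1), and *Pparg* with TN in *Txnip*−/− mice was −0.07 with median centring. Over libraries left out, log2 fold changes at RT ranged from −0.15 to 0.04 for *Ppargc1b*, −0.15 to 0.70 for *Prdm16*, −0.16 to 0.55 for *Ebf2*, −0.16 to 0.05 for *Pparg* and −0.21 to 0.09 for *Esrrg*, and at TN from −0.20 to 0.27 for *Cebpb*. With TN they ranged from −0.12 to 0.07 for *Ppargc1b* and −0.52 to 0.33 for *Prdm16* in WT, and from −0.25 to 0.04 for *Ebf2* and −0.02 to 0.28 for *Pparg* in *Txnip*−/− mice, and the interaction of *Esrrg* ranged from −0.24 to 0.06. Why these moved was not tested. Of 756 alternative values of single regulators, 675 kept direction and side of the threshold, 33 lost a call, 23 gained one and 25 turned sign. The limits are the 3 libraries of a group, TPM without counts per gene, and markers of cell types that differ between groups.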
